A study of Rattus with 4 samples.

Results

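Cytoplasmic ribosomal protein genes encode the protein part of the ribosome that works in the cytosol. Members were the protein-coding rows of the count table whose symbol is Rpl or Rps followed by a number (with an optional letter or paralog ending), together with Rplp0, Rplp1, Rplp2 and Rpsa. The rule found 79 of the 13731 genes listed, 45 for the large subunit and 34 for the small. All 79 symbols matched the RefSeq gene table of GRCr8; 1 of them, Rps10l1, is typed there as a pseudogene.

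The large subunit joins amino acids and the small subunit reads the mRNA. Ribosomal proteins are made in the cytosol, carried to the nucleolus and fitted onto ribosomal RNA. Their mRNAs are short and abundant and begin with a terminal oligopyrimidine (TOP) stretch, through which growth signals set their translation together with that of elongation factors. Introns of many of these genes also carry small nucleolar RNAs (snoRNAs), which guide chemical modification of ribosomal RNA.

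Libraries of RNA immunoprecipitation sequencing (RIP-seq) from cultured rat cardiac cells were compared. In RIP-seq an antibody against an RNA-binding protein, here the nuclear protein NONO, recovers RNA that is sequenced next to unprecipitated input. The 2 input libraries are labelled as cells given an empty vector, with no antibody; the 2 NONO IP libraries are labelled as cells given siRNA against NONO, with an anti-NONO antibody. By these labels, knockdown and precipitation cannot be told apart, and no control-antibody library was analysed here. The titles name H9C2, a rat heart myoblast line, while the growth protocol names a cardiac fibroblast line. The labels do not say that replicates were separate cultures, so p-values measure only the spread between these libraries, which may be technical.

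Gene counts summed to between 238776 and 279410 per library, which is shallow, and 3 reads corresponded to 10.2 to 15.9 scaled CPM. Scaled CPM is counts relative to the library size (CPM) after trimmed mean (TMM) scaling. Nono itself had 21 and 9 input reads, against 3 and 3 NONO IP reads. Of 12 fibroblast markers 10 were listed (Lum and Fap were not found by symbol), at 78073 to 78153 CPM summed in the inputs and 73022 to 73340 in the NONO IP. Of 8 skeletal myoblast markers 2 were listed, at 41.9 to 44.1 against 7.16 to 18.9 CPM, and Myod1, Myog, Myf5 and Pax7 were not found. Cardiomyocyte markers (8 of 11 listed) summed to 164 to 260 against 273 to 283 CPM, smooth muscle markers (5 of 6) to 2252 to 2362 against 1407 to 1462, endothelial markers (3 of 7) to 8.38 to 16.0 against 18.9 to 28.6, and macrophage markers (5 of 7) to 56.1 to 58.6 against 0 to 14.3. The part of these marker differences in the results below was not tested. In these bulk libraries, fewer cells of a type, less RNA per cell and the precipitation step itself cannot be told apart.

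Ribosomal protein mRNAs as a group were lower in the NONO IP libraries than in the inputs, in both subunits. All members together had 1537 and 1546 input reads, against 480 and 522 NONO IP reads, although the NONO IP libraries held more reads in total. The members' share of all counts was 0.616% and 0.647% for the inputs (0.632% ± 0.022, SD, n = 2), against 0.172% and 0.198% for NONO IP (0.185% ± 0.018, SD, n = 2), a 3.42-fold difference. Of protein-coding counts alone, members held 1.10% ± 0.023 in the inputs and 0.287% ± 0.028 in the NONO IP (SD, n = 2). After TMM scaling the summed level was 8049 ± 186 scaled CPM in the inputs and 1745 ± 169 in the NONO IP (SD, n = 2), which is 4.61-fold lower. The groups did not overlap on any of these scales, and the gap was larger than the spread within a group.

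The size of the group's fall depended on the scale. In the deposited RPKM values, which are per gene length, the members summed to 5431 ± 185 in the inputs and 721 ± 94.3 in the NONO IP (SD, n = 2), 7.53-fold lower. The total that these RPKM values were scaled to was 2.38 times as large for the NONO IP libraries. Ribosomal RNA genes held 105449 and 98242 input reads, against 89199 and 84942 NONO IP reads, and without them the members' share was 1.08% against 0.272%.

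Gene by gene, the fall was spread over most members. In a fit of all 13731 genes with no filter on low counts, edgeR's quasi-likelihood test called 57 of the 79 members lower, 0 higher and left 22 uncalled at an adjusted p under 0.05, while 4.73% of all genes were called lower and 8.59% higher. At an unadjusted p under 0.05 there were 66 members, beside 3053 of all 13731 genes. Negative log2 fold changes were seen in 77 of the 79 members, beside 6012 of all 13731 genes. The median log2 fold change over the members was −2.14, beside 0.30 over all genes. With members of no NONO IP reads set at their bound and the 6 members of at most 3 reads in both groups left out, the median of the other 73 was −2.03. The 22 members not called had between 1 and 77 input reads, with a median of 10.

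The levels per library show how few members went the other way. In 68 of 79 members both NONO IP libraries lay below both inputs in scaled CPM, which 22.7% of all genes listed did. Both lay above in 1 member, beside 22.5% of all genes listed, and the groups overlapped in 10. All 46 members with at least 20 input reads were among the 68. That subset was chosen by its input reads, so this count is no support on its own. The member above was Rpl38, a small large-subunit protein known for its part in translating Hox mRNAs in embryos, with 1 and 1 input reads against 2 and 5, too few for a call (log2 fold change 1.35, SE 1.02, edgeR adjusted p = 0.532).

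The count filter (filterByExpr) kept 39 members, 23 of the large and 16 of the small subunit, among 2920 genes. All 39 were called lower and 0 higher; 26.9% of all genes tested were called lower and 29.8% higher. This count is no support on its own, because 24 of the 39 did not reach the filter's level in both NONO IP libraries and so entered the test through the inputs. The other 15 reached it in both NONO IP libraries, and their log2 fold changes ran from −2.39 (Rplp0) to −0.99 (Rps16). The 40 members not tested, 22 large and 18 small, held 467 input reads and 154 NONO IP reads, and with no filter 20 of them were called lower.

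**Figure D1:**
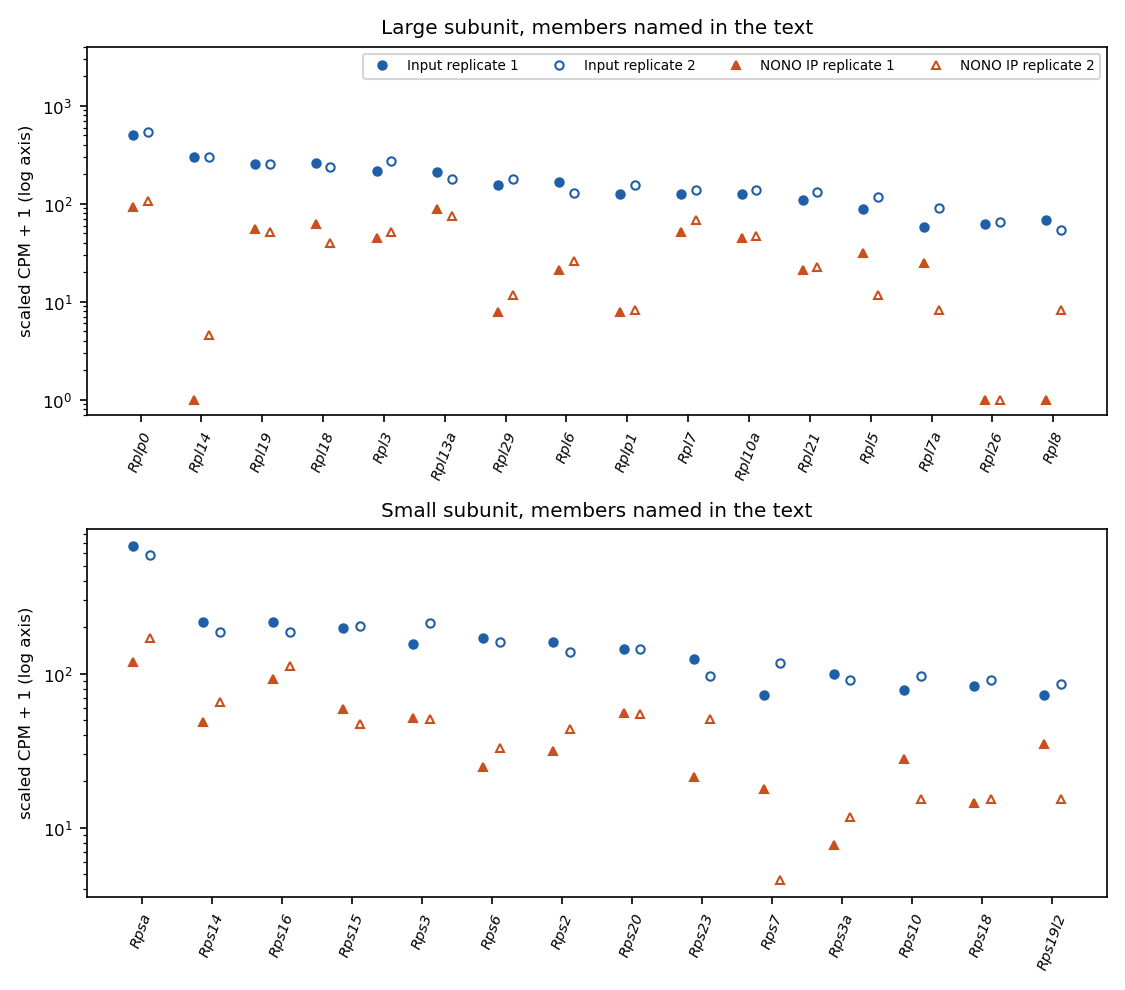
Scaled CPM plus 1 (log axis) of 30 of the members that passed the count filter, those named in the text, large subunit above and small below, ordered by input level; circles are the 2 inputs and triangles the 2 NONO IP libraries. In each of the 30 both triangles lie under both circles; points at 1 on the axis are libraries with no read.

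Large subunit mRNAs were 5.07-fold lower in the NONO IP and small subunit mRNAs 4.05-fold lower. Large subunit members summed to 911 and 964 input reads, against 267 and 288 NONO IP reads, or 4897 ± 289 against 966 ± 88.2 scaled CPM (SD, n = 2). Small subunit members had 626 and 582 input reads, against 213 and 234 NONO IP reads, or 3152 ± 103 against 779 ± 81.1 scaled CPM (SD, n = 2). The ratio of large to small subunit reads was 1.46 and 1.66 in the inputs, against 1.25 and 1.23 in the NONO IP. These ratios did not overlap, but with 2 libraries against 2 an exact permutation test cannot give a p below 0.333, so none was run.

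Part of the subunit difference rested on a single gene. Without Rpl14 the ratio was 1.36 and 1.56 in the inputs against 1.25 and 1.23, and without Rpsa, the most counted small subunit member, it was 1.84 and 2.04 against 1.50 and 1.54. The median log2 fold change of tested members was −2.27 for the large and −2.02 for the small subunit. With no filter the order turned, with −2.14 for all 45 large and −2.21 for all 34 small subunit members. It did not turn with members of no NONO IP read at their bound and those of at most 3 reads in both groups left out, with −2.03 for 42 large and −1.99 for 31 small subunit members. Without NONO IP replicate 1 the gap between the medians of tested members shrank from −0.25 to −0.02. The difference between the medians was not tested.

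**Figure D2:**
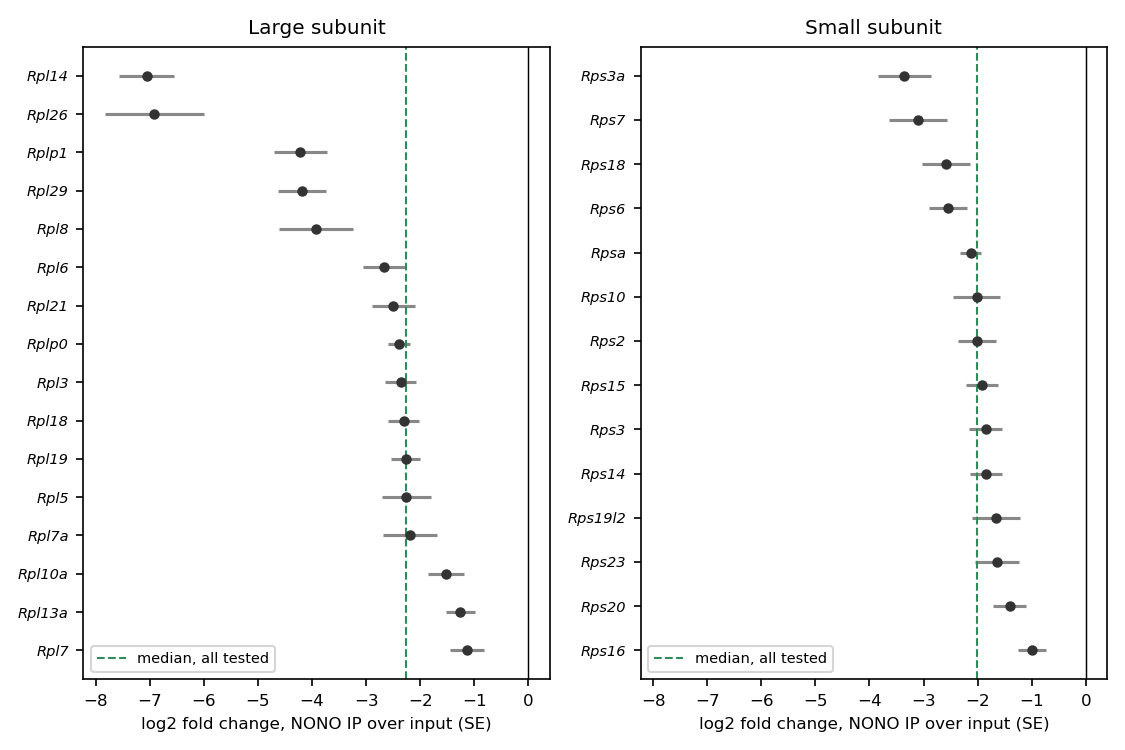
Log2 fold change of NONO IP over input for the 16 large and 14 small subunit members tested that the text names, with bars of 1 standard error; the dashed line is the median of all tested members of the subunit, −2.27 and −2.02. Every point lies left of 0; the values of Rpl14 and Rpl26 rest on 1 and 0 NONO IP reads, so their exact place carries little information.

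The P stalk of the large subunit, which recruits elongation factors to the ribosome, is built from Rplp0 and pairs of Rplp1 and Rplp2. Rplp0, its base, had 97 and 103 input reads, against 27 and 30 NONO IP reads. It fell by 2.39 on the log2 scale (SE 0.20, edgeR adjusted p = 1.92e-08). Rplp1 fell further, from 24 and 29 input reads to 2 and 2 NONO IP reads (−4.22, SE 0.49, adjusted p = 1.55e-06). Rplp2 was thinly counted, with 2 and 6 input reads against 1 and 5, and its groups overlapped. Rpl12, which sits at the base of the stalk, had 5 and 18 reads against 2 and 3; it failed the filter, and its log2 fold change with no filter was −2.50 (SE 0.66, adjusted p = 0.00496).

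Rpsa, the small subunit protein also known as the laminin receptor precursor, was the most counted member. It had 130 and 110 input reads, against 35 and 47 NONO IP reads, and fell by 2.13 on the log2 scale (SE 0.19, edgeR adjusted p = 4.44e-08). The 10 most counted members together held 41.3% of the members' input reads.

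Per gene length, Rpsa had 308 ± 28.5 RPKM in the inputs and Rplp0 244 ± 16.6 (SD, n = 2), and the inputs of these genes lay apart. Rps14, a small subunit protein, had 208 ± 21.5 and Rps15 206 ± 5.24 RPKM, and these neighbours overlapped. The median over the 79 members was 43.0 RPKM in the inputs and 4.79 in the NONO IP, and the lowest input level was 1.73 RPKM, for Rps27l.

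Other well counted members fell by similar amounts. Rpl19, which reaches across to the small subunit, had 49 and 48 input reads against 16 and 14 in the NONO IP (log2 fold change −2.27, SE 0.27). For Rpl18 there were 51 and 45 reads against 18 and 11 (−2.30, SE 0.29). Rps14 had 42 and 35 reads against 14 and 18, Rps15 had 38 and 38 against 17 and 13, and Rps3, which lines the mRNA entry channel, had 30 and 40 against 15 and 14. In log2 terms these 3 small subunit genes changed by −1.84, −1.92 and −1.85, and edgeR's adjusted p was 7.32e-05 or less for each.

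Rpl14 and Rpl26 nearly disappeared from the NONO IP. Rpl14, a large subunit protein, had 58 and 57 input reads, against 0 and 1 NONO IP reads. The input level was 173-fold that of the NONO IP, with an exact conditional 95% interval of 30.4 to 6879 for counting error only. Rpl26, which lies near the exit of the nascent chain tunnel, had 12 and 12 input reads and none in the NONO IP, at least 12-fold lower when the NONO IP is set at 3 reads over the group. Their edgeR adjusted p-values were 3.83e-09 and 9.28e-06. No other member with more than 24 input reads had so few NONO IP reads.

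In all, 11 members had no NONO IP read. Of these, 6 had more than 3 input reads; beside Rpl26 they included Rpl24 with 4 and 4 and Rpl34 with 3 and 5 (both at least 4.0-fold lower), Rpl27 with 2 and 5 (at least 3.50-fold) and Rpl35al1 with 4 and 2 (at least 3.0-fold). The other 5 had 1 or 2 input reads and allow no statement at this depth.

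Other large falls among tested members came with 2 to 6 NONO IP reads. In the large subunit, Rpl29 went from 30 and 34 input reads to 2 and 3 NONO IP reads (log2 change −4.19, SE 0.45). Rpl8, whose protein lies close to the peptidyl transferase centre, went from 13 and 10 to 0 and 2, an input level 17.3-fold higher (exact conditional interval 4.27 to 151). In the small subunit Rps3a went from 19 and 17 reads to 2 and 3 (−3.36, SE 0.49) and Rps7 from 14 and 22 to 5 and 1 (−3.11, SE 0.54). All of these were called lower by edgeR, with adjusted p-values between 5.71e-07 and 0.00011.

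At the other end, 6 members kept more of their reads. Rps16, of the small subunit head, had 42 and 35 input reads against 27 and 31 in the NONO IP (log2 fold change −0.99, SE 0.26, edgeR adjusted p = 0.0035). For Rpl7 there were 24 and 26 reads against 15 and 19 (−1.14, SE 0.32, adjusted p = 0.00557). Rpl13a, known also for silencing inflammatory mRNAs in macrophages, had 41 and 34 against 26 and 21 (−1.26, SE 0.27). Rps20 had 28 and 27 reads against 16 and 15 (−1.41, SE 0.31), Rpl10a, the protein of the L1 stalk, 24 and 26 against 13 and 13 (−1.52, SE 0.33), and Rps23, at the decoding centre, 24 and 18 against 6 and 14 (−1.64, SE 0.41). Raw reads of these genes were lower in both NONO IP libraries than in both inputs. The calls of Rps16 and Rpl7 ended with no filter (adjusted p = 0.0516 and 0.0646), with scaling to library totals (0.0887 and 0.0768) and with the DESeq2 Wald test (0.0704 and 0.1004), and that of Rpl7 also without NONO IP replicate 1 (0.0707).

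Another 3 members are known from cell signalling. Rpl5, which with Rpl11 and a small ribosomal RNA restrains Mdm2 and so stabilises p53, had 17 and 22 input reads against 9 and 3 (log2 fold change −2.26, SE 0.45, adjusted p = 0.000435). Its partner Rpl11 had 12 and 3 reads against 6 and 6, and its groups overlapped. Rps6, the small subunit target of S6 kinase, was the clearer case, with 33 and 30 reads against 7 and 9 (−2.54, SE 0.35, adjusted p = 1.06e-05).

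In 4 cases both a gene and the paralog named after it with an l ending were members. Rpl7l1 had 1 and 7 input reads against 3 and 3, and its groups overlapped, unlike those of Rpl7. Rps27, a small subunit protein, had 4 and 7 reads against 0 and 2, while Rps27l had 0 and 1 against 0 and 0. Rps10, which sits where colliding ribosomes are sensed, had 15 and 18 reads against 8 and 4 (log2 fold change −2.02, SE 0.44), and Rps10l1 had 1 and 0 against 0 and 0. Rps18 had 16 and 17 reads against 4 and 4 (−2.59, SE 0.45), and Rps18l1 had 1 and 1 against 0 and 0. The paralogs were too thinly counted for a comparison with their partners, and how reads of near-identical copies were divided is not given in the sources used here.

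Input level and gene length told little about which tested member fell most. Across the 39 genes the log2 fold change had a Pearson r of 0.12 and a Spearman rho of 0.13 with log2 input CPM, and 0.21 and 0.14 with log2 gene length. Over the 2894 genes tested that had input reads, the log2 fold change went down with log2 input CPM (Pearson r −0.62, Spearman rho −0.64). The median input level was 144 scaled CPM for the tested members and 73.2 for all genes tested. The part of input level in the members' fall relative to all genes was not tested. These are descriptions across genes of the same 4 libraries, and input CPM is also part of the fold change. Members lay on 19 chromosomes, with 15 on chromosome 1. Median log2 fold changes of tested members were −2.19 for the 17 that hold a snoRNA gene in RefSeq and −2.28 for the 22 that hold none.

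The members differed from the other genes in length, and this moved with the fall. In units of the median member's length, the tested members had a median of 1.21, against 7.04 for the protein-coding genes tested. Over all 2920 genes tested, the log2 fold change rose with length (Spearman rho 0.26, Pearson r 0.09). With a loess offset for gene length, 27 of the 39 tested members were called lower and 0 higher, where 21.7% of all genes were called lower, and the median log2 fold change of tested members was −1.19 in place of −2.26. By subunit, 19 of 23 large members (median −1.28) and 8 of 16 small members (median −1.01) were called. Under this offset Rplp0 fell by 1.28 (SE 0.20, adjusted p = 5.25e-05), Rpsa had −1.0 (SE 0.19, adjusted p = 0.000341) and Rpl14 −6.01 (SE 0.58, on 1 NONO IP read), while Rps16 (0.16, SE 0.26) and Rpl7 (0.02, SE 0.32) turned positive and were not called. With the offset the calls of Rps3, Rps20, Rps23, Rps2, Rps10, Rpl10a and Rpl13a also ended, as did those of Rpl7a and Rps19l2, with adjusted p-values between 0.0503 and 0.394.

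**Figure D3:**
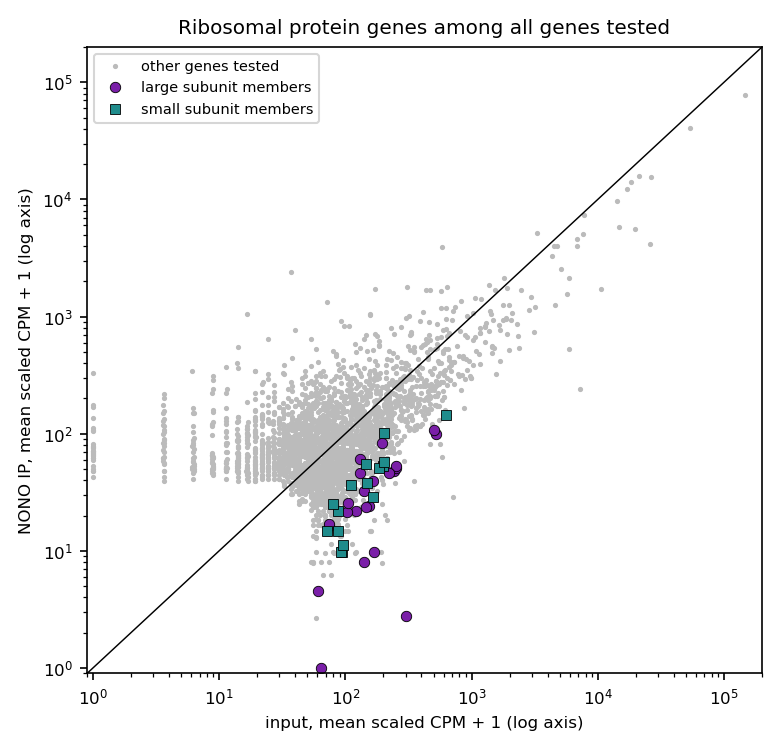
Mean scaled CPM plus 1 over 2 libraries in the input (x) and NONO IP (y), both log axes, for the 2920 genes tested; large subunit members are circles, small subunit members squares, other genes grey, and the line marks equal levels. All 39 members lie under the line, at input means of 59.9 to 626 scaled CPM; the empty lower left corner is the count filter.

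Among the other genes of the translation apparatus, non-ribosomal TOP mRNAs were mostly lower too. Of 42 such genes 36 were listed and 16 tested; 15 were called lower and 0 higher, beside 26.9% and 29.8% of all genes tested, with a median log2 fold change of −1.65, beside 0.02 for all genes tested. With the length offset 11 of the 16 were called lower, beside 21.7% of all genes. The summed level of the 36 was 3.04-fold lower in the NONO IP. Eef2, the translocase of elongation, had 476 and 435 reads in the inputs against 151 and 161 (−2.13, SE 0.11, edgeR adjusted p = 1.77e-11). Eef1a1, which delivers aminoacyl-tRNA, had 97 and 124 against 18 and 18 (−3.19, SE 0.23), and Vim, the intermediate filament vimentin, had 326 and 319 against 196 and 241 (−1.15, SE 0.12). With the length offset the log2 fold change of Vim was −0.46 (adjusted p = 0.0037). Of the 36 TOP genes listed, 14 (6 of them tested) are also among the 38 translation factors, and 2, Npm1 and Ncl, among the ribosome biogenesis genes, so these groups are not separate.

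Some translation factors were called lower, and most of the others tested were not called. Of 38 listed genes 18 were tested, 8 were called lower and 1 higher, beside 26.9% and 29.8% of all genes tested, with a median of −0.60. With no filter 11 of the 38 were called lower and 1 higher, beside 4.73% and 8.59% of all genes. With the length offset 6 of 18 were called lower and 0 higher, beside 21.7% and 28.2% of all genes tested, and the median was −0.15. The 14 genes shared with the TOP list are counted here too, and the summed level of the 38 was 2.35-fold lower. The scaffold of the cap-binding complex Eif4g1 had 90 and 105 reads against 62 and 58 (−1.29, SE 0.17, adjusted p = 7.54e-06). The 1 gene called higher was its relative Eif4g3, with 46 and 34 reads against 91 and 82 (0.53, SE 0.20, adjusted p = 0.032), named after its value was seen. That call ended with the length offset (0.14, adjusted p = 0.578), with the DESeq2 Wald test (adjusted p = 0.242) and without Input replicate 2 (0.442) or NONO IP replicate 1 (0.0572), and in the RPKM fits the log2 fold change was −0.12 to −0.11, so its direction depends on the scaling.

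Genes that build ribosomes were seldom deep enough to test. Of 77 listed ribosome biogenesis genes 4 were tested. The 77 had 277 and 294 input reads, against 305 and 286 NONO IP reads, and their summed scaled CPM was 1.45-fold lower. With no filter 1 of the 77 was called lower and 1 higher, beside 4.73% and 8.59% of all genes. Npm1, the nucleolar chaperone nucleophosmin, was called lower with 10 and 11 reads against 3 and 1 (−2.89, SE 0.57, adjusted p = 0.000353; 0.0862 without Input replicate 1). Ncl, nucleolin, was called lower with 37 and 33 against 34 and 33 (−0.65, SE 0.25, adjusted p = 0.0349), a call that ended when any library but Input replicate 2 was left out (0.113 to 0.158) and, among other settings, with library totals (0.545). Ubtf, the upstream factor of RNA polymerase I, was called higher, with 17 and 14 reads against 43 and 37 (0.78, SE 0.29, adjusted p = 0.0307). Its call ended when any library but NONO IP replicate 2 was left out (log2 fold change 0.60 to 0.87). It also ended with the DESeq2 Wald test (adjusted p = 0.244). In the RPKM fits the log2 fold change of Ubtf was 0.11 to 0.12 and was not called.

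Mitochondrial ribosomal protein genes, whose products form the separate ribosome inside mitochondria, were almost unseen at this depth. The 60 listed had 65 and 71 input reads, against 42 and 61 NONO IP reads, and none passed the filter. With no filter edgeR called 1 lower and 0 higher, beside 4.73% and 8.59% of all genes in that fit. At an unadjusted p under 0.05 there were 4 of the 60, beside 3053 of all 13731 genes. Their summed level was 1.98-fold lower, less than that of either cytoplasmic subunit, though the 2 NONO IP libraries differed widely; the difference itself was not tested.

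**Figure D4:**
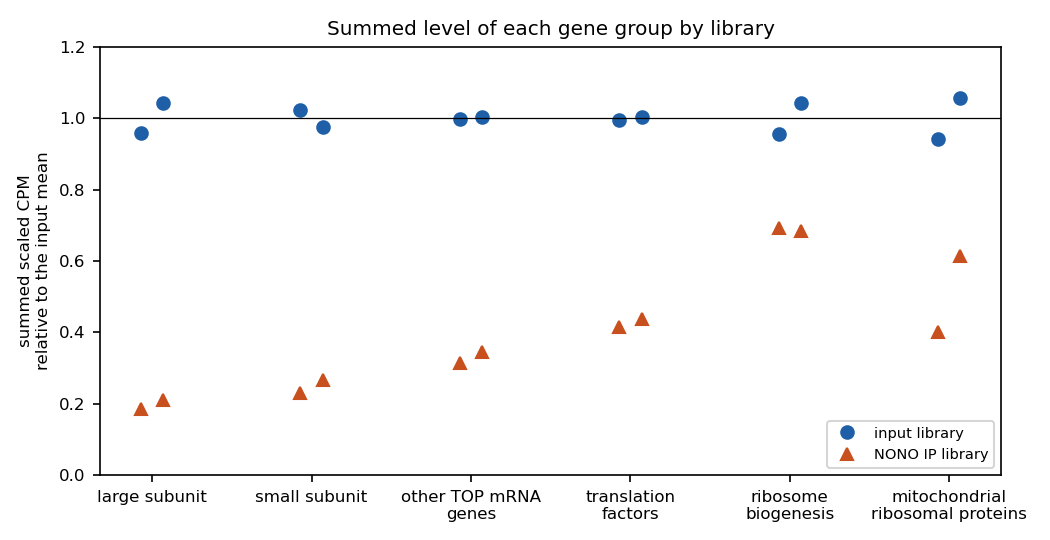
Summed scaled CPM of each gene group per library, divided by the mean of the 2 inputs; circles are inputs and triangles NONO IP libraries. The large subunit has the lowest NONO IP values (0.185 and 0.210), then the small subunit (0.229 and 0.265), other TOP mRNA genes (0.314 and 0.346), translation factors (0.416 and 0.436), mitochondrial ribosomal proteins (0.400 and 0.613) and ribosome biogenesis (0.692 and 0.685); 14 genes are in both the TOP and the translation factor group, 2 in both the TOP and the biogenesis group, and 1 in both the biogenesis and the translation factor group.

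Reads of snoRNAs encoded inside members, summed, were higher in the NONO IP, while those of their hosts were lower. RefSeq places 59 snoRNA genes inside 30 members, and 18 of them, in 13 hosts, were listed in the count table. These 18 had 66 and 58 input reads, against 357 and 274 NONO IP reads, while their 13 hosts had 379 and 380 reads against 124 and 138. Of the 18 snoRNAs, 10 had both NONO IP libraries above both inputs, 1 had both below and 7 overlapped, where 22.5% of all genes listed lay above. Of the hosts, 11 of 13 lay below, beside 68 of all 79 members and 22.7% of all genes listed. Of the 8 snoRNAs tested, 7 were called higher and 0 lower, but all 7 passed the filter through the NONO IP libraries, so the count is no support.

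The clearest pair was Rpl6 and a snoRNA gene inside it, LOC120096111. The snoRNA had 1 and 2 input reads, against 80 and 58 NONO IP reads, 30.6-fold higher (exact conditional interval 10.3 to 150). With no filter the log2 fold change of the snoRNA was 5.055 (SE 0.47, edgeR adjusted p = 3.86e-12). Its host Rpl6, a large subunit protein, had 32 and 24 reads against 6 and 7 (−2.45 with no filter, SE 0.41, adjusted p = 7.65e-06). Rps2, at the mRNA entry channel, had 31 and 26 reads against 9 and 12 (−2.01, SE 0.34), and Snora64 inside it 1 and 1 against 39 and 28 (22.3-fold, interval 5.94 to 188). In both pairs the host fell and the snoRNA rose.

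Rpsa and Rplp2 gave further pairs. Inside Rpsa, Snora73bl1 had 5 and 3 reads against 29 and 28 (2.43 with no filter, SE 0.47, edgeR adjusted p = 9.15e-05). Snora62l1 had 3 and 2 reads against 30 and 13 (2.68 with no filter, SE 0.58, adjusted p = 0.000561). Snora6l1, also in Rpsa, had 1 and 2 reads against 16 and 8, a ratio of 5.33 (exact conditional interval 1.62 to 27.6), and failed the filter. Snora52 inside Rplp2 had 1 and 0 input reads against 39 and 34, a ratio of 48.6 (exact conditional interval 8.46 to 1946), while its host overlapped between groups.

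Other snoRNAs were called higher or were not called. Rpl3, of the peptidyl transferase region, had 42 and 51 reads against 13 and 14. Snord83b inside it had 3 and 5 against 20 and 25 (2.09 with no filter, SE 0.50, edgeR adjusted p = 0.00173). Snora65 inside Rpl12 had 0 and 3 reads against 19 and 11, a ratio of 6.66 (exact conditional interval 2.07 to 34.1). Its log2 fold change with no filter was 2.86 (SE 0.71, adjusted p = 0.0028). Inside Rps3, Snord15a, the most counted of the 18 in the inputs, had 39 and 33 reads against 68 and 57 and was not called (0.21, SE 0.22, adjusted p = 0.428), and Snord15b had 7 and 5 against 5 and 3. Another 7, in Rpl5, Rpl10, Rpl13a, Rpl21 and Rpl32, had at most 6 NONO IP reads each.

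Some snoRNA genes outside members were called higher as well. With no filter, 33 of the 118 listed were called higher and 3 lower, as were 8 and 0 of the 18 nested ones, beside the 8.59% and 4.73% of all genes given above. Nesting was read from GRCr8, whereas the files were made on mRatBN7.2. The strand and overlap settings of the counting were not given in the sources used here. A snoRNA's reads cannot be told apart from reads of unspliced host RNA at that place.

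**Figure D5:**
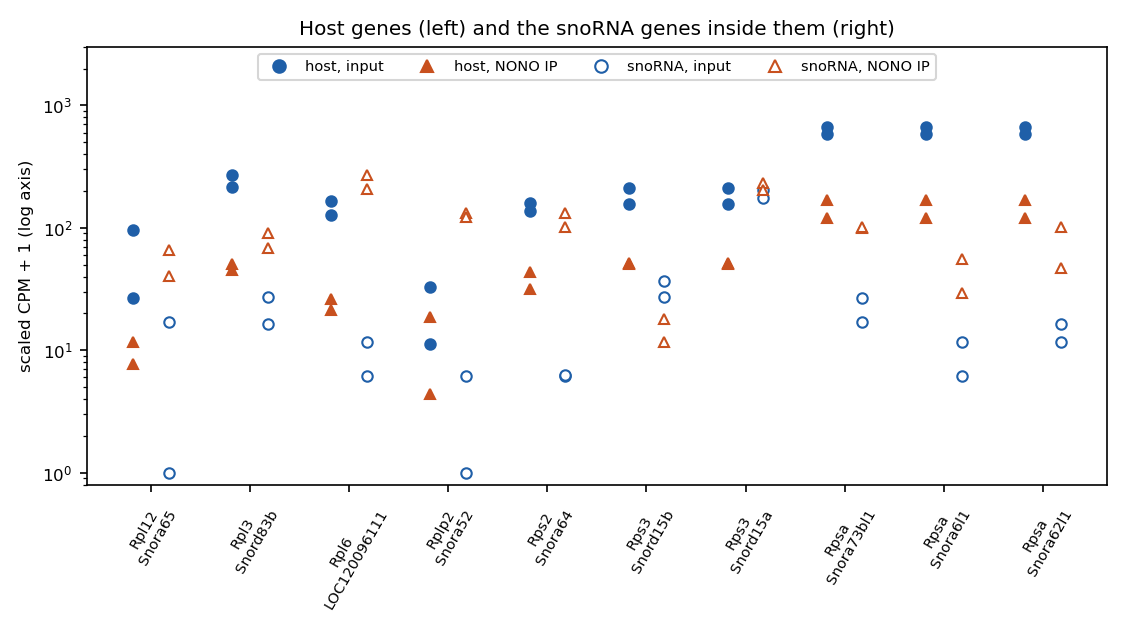
Scaled CPM plus 1 (log axis) of host genes (filled, left of each tick) and the snoRNA gene inside each (open, right) for 10 snoRNA genes with at least 10 reads in all; circles are inputs, triangles NONO IP libraries. Open triangles lie above open circles in all pairs shown but Rps3 with Snord15b, while filled triangles lie below filled circles except for Rplp2, where they overlap.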

How the data were processed

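Gene-level values of 4 RIP-seq libraries were used, grouped and numbered by their titles. The authors deposited counts, which are whole numbers of reads for each gene, and RPKM values, which are scaled by gene length and by a library total that is not stated (per the file headers, checked on the values). The submitters' processing notes name HISAT2, HOMER and mRatBN7.2 without saying what each did. The counter and its strand setting were not given in the sources used here. By the labels' protocols, poly(A) RNA was selected after a DNase step and the kit keeps strand.

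Counts of all genes were fitted with edgeR 4.0.16 (R 4.3.3; quasi-likelihood, TMM, filterByExpr at 10 reads for the median library), which kept 2920 genes with 91.1% of counts. P-values were adjusted by Benjamini-Hochberg over all genes tested and called under 0.05. TMM gave the inputs factors of 0.844 and 0.861, and the NONO IP 1.17 and 1.18. SE was taken as the log2 change over the root of F. On simulated counts over 2782 genes for this comparison, a true log2 change of −2 was called in 95.1% of 41 genes, −1 in 51.4% of 35, and no change in 0.345%. The simulation used a dispersion of 0.01, where the fit's common dispersion was 0.00458. It changed 200 genes, evenly up and down, against 786 lower and 871 higher calls in the data. These rates cover only genes that passed the filter. Exact conditional 95% intervals and the floor of 3 reads over a group cover counting error only, as reads carry no molecular identifiers. Replicates differed by more than sampling noise (chi-square per degree of freedom 1.12 and 1.42, where a pair's count is 20 or more) and stayed separate, although over members alone it was 0.741 (46 genes) and 0.643 (18 genes). Gene length is counts over RPKM.

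The members and gene lists were chosen with earlier results of these data known. Named genes are Rplp0, Rplp1, Rplp2 and Rpsa; per subunit the 5 members with most input reads and the 3 with the largest and with the smallest falls; paralog pairs; hosts of listed snoRNA genes; and 3 genes per other list. Others were named after their values were seen. Some genes that the rule names are not reported here. Alternatives were scaling by library totals or DESeq2 size factors, the Wald test of DESeq2 1.42.0, voom and RPKM fits in limma 3.58.1 (pseudocounts 1 and 0.1), no filter, 50 counts in 2 libraries, a replicate block, a length offset (loess, span 0.5), leaving out each library and, added after seeing the data, protein-coding genes only.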

Additional observations from a re-analysis of the deposited data

How the results depend on the processing

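Of 434 values of the 27 tested members that the naming rule gives, 405 kept their direction and side of the threshold, 25 kept only the direction and 4 turned: Rpl7 to 0.016 and Rps16 to 0.16 with the length offset, alone or with the replicate block. Of the 39 tested members, 21 were called lower in every alternative that tested them. No member was called higher in any alternative run. The number called lower was 39; it was 4 of 4 tested with at least 50 counts in 2 libraries, 61 of 75 with log2(RPKM + 1), and 38 to 45 when libraries were left out in turn. It was 36 with the DESeq2 Wald test. Replicate numbers did not pair the libraries (correlation of deviations 0.0508, 2 pairs), and with the replicate block 39 members were lower, as were 806 of all genes, with 870 higher.

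Over all genes, 786 were lower and 871 higher; these were 444 and 1219 with library totals, 423 and 453 with the DESeq2 Wald test, 247 and 254 with 50 counts in 2 libraries, 1425 and 393 with log2(RPKM + 1), and 615 to 705 and 679 to 810 with a library left out. Higher genes were 348 with log2(RPKM + 0.1) and 132 with log2(RPKM + 1) and no filter.

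The members' median of −2.26 was −1.80 with library totals, −2.88 with log2(RPKM + 1), −3.06 with log2(RPKM + 0.1), −2.80 with log2(RPKM + 1) and no filter, −1.19 with the length offset alone and −1.19 with the block, and −2.34 to −2.23 with a library left out. These scalings move the median of all genes too, to 0.48 with library totals and −0.61, −0.82 and −0.22 with the RPKM settings; relative to it the members' median lay at −2.28, and at −2.29, −2.28, −2.23 and −2.58 in those settings, but at −1.29 with the length offset. Large minus small subunit medians were −0.25, turned to 0.065 with no filter, and ran from −0.39 to −0.024 with a library left out. The members' share of counts was 1.08% against 0.272% without rRNA genes and 1.10% against 0.287% of protein-coding counts. Depth limits the 40 untested members, which had at most 23 input reads each.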

Other observations

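Ribosomal protein rows that the symbol rule leaves out moved in the same direction. There were 41 such rows, with 74 and 70 input reads, against 23 and 28 NONO IP reads. Fau, whose product is a fusion of a ubiquitin-like protein with the small subunit protein S30, had 14 and 10 reads against 6 and 5 (log2 fold change −1.69, SE 0.45, edgeR adjusted p = 0.00431). Rps27a, a member and also a ubiquitin fusion, had 12 and 8 reads against 2 and 1. LOC120093056, described as the large subunit protein L37, had 7 and 6 input reads and none in the NONO IP. The 38 rows described as copies held 69 input reads and 32 NONO IP reads in all.

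Rps9l1, Rps19l2 and Rpl35al1 are members with a paralog ending whose parent symbol is no member row here. Rps9l1 had 5 and 4 input reads against 6 and 7, an overlap in scaled CPM, whereas Rps19l2 had 14 and 16 against 10 and 4 (log2 fold change −1.67, SE 0.44, edgeR adjusted p = 0.0042). Rack1, a scaffold protein bound to the small subunit and outside the symbol rule, had 37 and 27 reads against 6 and 4 (−3.23, SE 0.40, adjusted p = 3.24e-06).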
